A study of Mus musculus with 8 samples.

Results

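The 7 genes described here carry MHC class II antigen presentation: H2-Aa, H2-Ab1 and H2-Eb1, which encode class II chains, Cd74, which encodes the invariant chain, Ciita, which encodes the class II transactivator, and H2-DMa and H2-DMb1, which encode the peptide exchange factor H2-DM. They were taken by symbol from the 25124 genes of the expression table, and all 7 were found there and passed the filter on low values. RNA was sequenced from 8 cultures of mouse bone marrow-derived osteoclast precursor cells, 2 in each of 4 groups named no PRDX1 + no RANKL (control), PRDX1 + no RANKL (PRDX1 alone), no PRDX1 + RANKL (RANKL alone), and PRDX1 + RANKL. All cultures received M-CSF (30 ng/mL), the macrophage growth factor, for 48 h, so that every group, the control included, was M-CSF-treated. RANKL, the cytokine that starts osteoclast differentiation, was given at 100 ng/mL, and PRDX1, an antioxidant enzyme applied here from outside the cells as a His-tagged protein purified from E. coli with endotoxin removal, at 200 nM. The labels give the mice as C57BL/6 aged 6 to 8 weeks, whereas the methods of the study name ICR mice for these cells. Neither says whether the 2 cultures of a group came from separate animals, so that p-values measure only the spread between these cultures.

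Class II molecules display peptides from endosomes to CD4+ T cells. In macrophages, dendritic cells and B cells, an alpha and a beta chain pair in the endoplasmic reticulum with the invariant chain CD74, which blocks the groove and directs the complex to endosomes. There proteases such as cathepsin S cut CD74 down to a short peptide, and H2-DM exchanges that peptide for antigen, while H2-O restrains H2-DM. The genes share promoter boxes named X and Y, bound by RFX and NF-Y proteins, to which CIITA is recruited without binding DNA itself, and interferon gamma is the classical inducer of Ciita in macrophages. The I-E alpha chain gene is a pseudogene (H2-Ea-ps) in mice of the H-2b haplotype, and CD74 at the surface also serves as the receptor of the cytokine MIF.

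The 5 members with class II or H2-DM chains lie together on chromosome 17 (mm10), where the counted RefSeq transcripts were H2-Aa at chr17:34282744-34287823 (minus strand), H2-Ab1 at chr17:34263227-34269418, H2-Eb1 at chr17:34305867-34316674, H2-DMa at chr17:34122832-34139101 and H2-DMb1 at chr17:34153191-34160229 (plus strand). Ciita and Cd74 lie on other chromosomes. RefSeq promoter windows (GRCm38.p6, 250 bases before to 50 after a start site) were given for 4 of the 7 members, not for H2-Ab1, Cd74 or Ciita. The stretches from base -150 to base -21 before the counted start site are shown because letters matching the boxes fall there in some members and not in others. Capitals mark matches to the Y box letters ATTGG (or CCAAT on the other strand) and the X box letters (GNNAC followed directly by NNATG), both strands having been searched.
H2-Eb1, chr17:34305717-34305846, plus strand: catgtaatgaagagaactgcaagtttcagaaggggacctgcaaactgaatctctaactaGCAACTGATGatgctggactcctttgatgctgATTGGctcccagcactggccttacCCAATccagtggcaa
H2-DMb1, chr17:34153041-34153170, plus strand: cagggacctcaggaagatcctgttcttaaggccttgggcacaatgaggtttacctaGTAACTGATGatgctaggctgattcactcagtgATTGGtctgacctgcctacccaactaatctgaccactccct
H2-Aa, chr17:34287844-34287973, minus strand: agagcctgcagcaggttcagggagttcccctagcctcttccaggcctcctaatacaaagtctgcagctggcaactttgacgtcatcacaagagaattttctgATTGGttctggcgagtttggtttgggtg
H2-DMa, chr17:34122682-34122811, plus strand: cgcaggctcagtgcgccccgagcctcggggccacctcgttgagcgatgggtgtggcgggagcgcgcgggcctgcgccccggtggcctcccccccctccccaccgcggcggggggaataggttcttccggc
H2-Eb1 and H2-DMb1 held an X box upstream of a Y box, with 32 and 33 bases from the first base of one to the first base of the other. H2-Aa held a Y box at -48 and no match to the X box letters, and H2-DMa matched neither at its counted start site. At another start site of H2-DMa, Y box letters were at -198. The letters searched are strict, so that a stretch without a match may still hold a box. Y box letters were in 37.4% of all 32851 promoter windows and X box letters in 8.97%, so that single matches were common. An X box upstream of a Y box on the same strand within 100 bases was in 0.706% of the windows, a search chosen after these sequences had been read. It was also met by H2-Ob (30 bases apart), H2-Eb2 (32) and H2-Oa (97), which are class II genes outside the 7. The letters of the gamma-activated site (TTCNNNGAA, in 8.3% of windows) and of the interferon-stimulated response element (GAAA, NN, GAAA, in 3.44%) matched in none of the 4 members' windows.

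Expression is given as FPKM, fragments scaled to transcript length and library size, so that levels can be compared between genes. Reads recovered from the FPKM gave library totals of 27284700 to 46171800. Cd74 was the most abundant member and Ciita the least, with 2662 to 6289 and 96 to 199 reads per library. Changes are differences of log2(FPKM + 1), which understate the change of low genes such as Ciita, fitted by limma in 1 model of the 4 groups for 11700 genes. A gene was called higher or lower where its Benjamini-Hochberg adjusted p-value was under 0.05 and its change at least 1.5-fold, and adjusted p-values are from this fit unless another is named beside them. A permutation of 2 against 2 cultures cannot reach p = 0.05, so none is given for single genes. In bulk RNA, fewer cells of a type and less RNA per cell cannot be told apart. The cultures carried macrophage RNA, with Csf1r, the M-CSF receptor, at 241 to 514 FPKM.

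**Figure D1:**
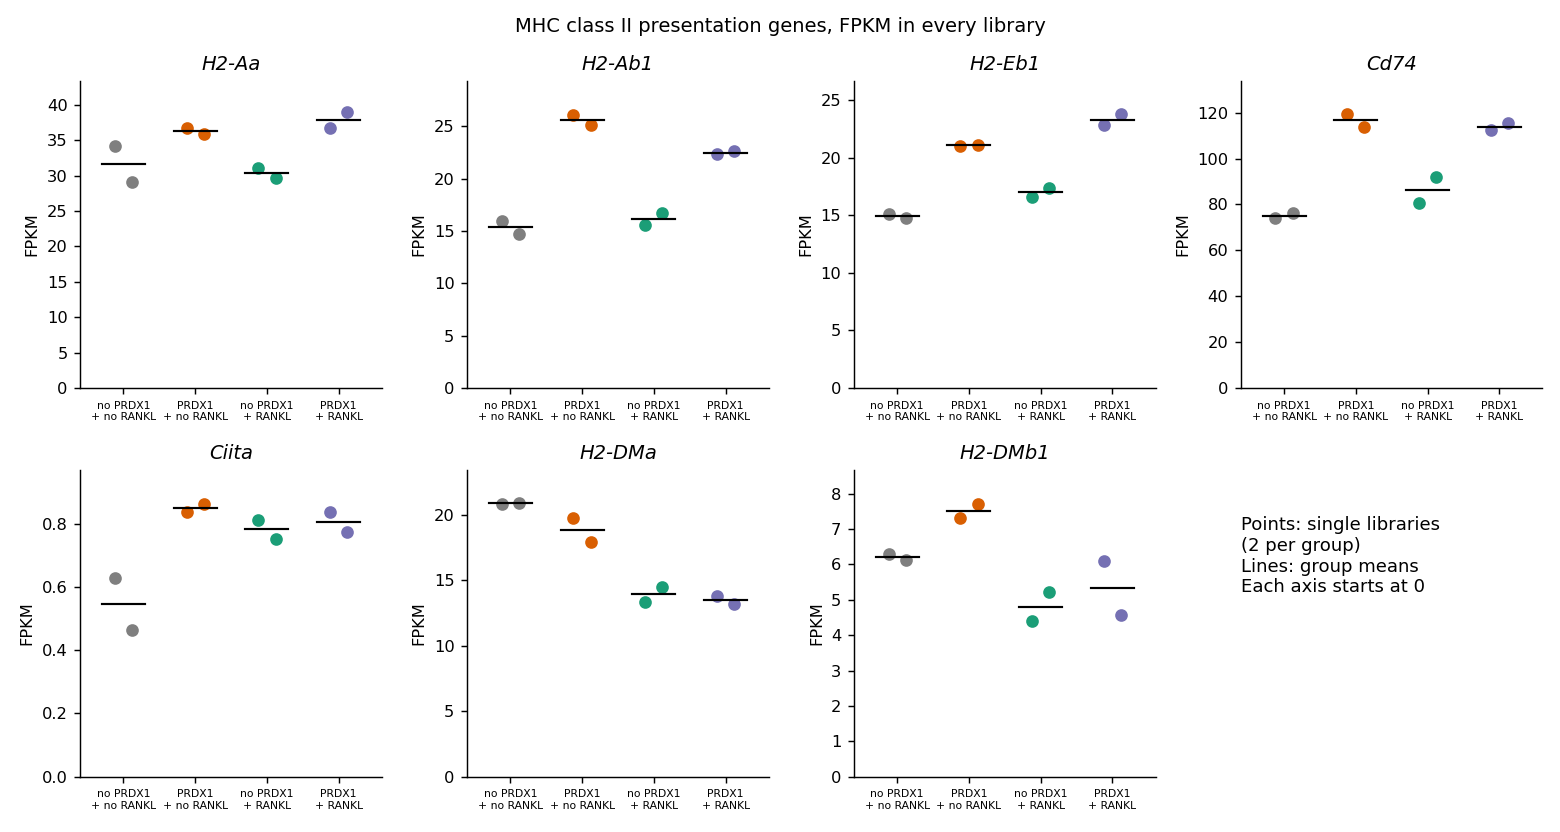
FPKM (vertical axes, from 0) of the 7 members in every library, with the 4 groups along each horizontal axis, points for libraries and lines for group means (n = 2). For H2-Ab1, H2-Eb1 and Cd74 both libraries of each PRDX1 group lie above all 4 libraries without PRDX1, whereas H2-DMa and H2-DMb1 have lower means in the RANKL groups. The share of all genes that separate in this way was not counted.

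PRDX1 without RANKL raised H2-Ab1 and Cd74 about 1.5 to 1.6-fold, and H2-Eb1 was also higher, at a change under 1.5-fold. H2-Aa, Ciita, H2-DMa and H2-DMb1 did not pass the test. Called were 2 of 7 members higher and 0 lower, where 3.8% of all genes tested were called higher and 1.99% lower. By adjusted p alone 3 members were higher and 0 lower, against 12.2% and 17.6% of all genes. The median change of the members was 0.26 on the log2 scale and that of all genes -0.04.

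H2-Ab1 encodes the beta chain of I-A. It was at 16.0 and 14.7 FPKM in the control, 26.1 and 25.1 with PRDX1 alone, 15.6 and 16.8 with RANKL alone, and 22.3 and 22.6 with PRDX1 + RANKL. The PRDX1 libraries were the 4 highest and did not overlap with the others. Here and for the members below, the share of all genes whose libraries separate by treatment in this way was not counted. Without RANKL the log2 change by PRDX1 was 0.70 (SE 0.06, 1.63-fold, adjusted p = 3.11e-05), the largest of the 7 members.

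Cd74, the chaperone and targeting chain on chromosome 18 (chr18:60803849-60812652, plus strand), was at 74.1 and 76.2 FPKM in the control and at 119 and 114 with PRDX1 alone. With RANKL it was at 80.7 and 91.9 without PRDX1 and at 112 and 115 with it. Again the 4 libraries with PRDX1 were above the 4 without, and the log2 change without RANKL was 0.63 (SE 0.06, 1.55-fold, adjusted p = 5.37e-05). The annotation places Mir5107 over 12 exon bases of Cd74, and the counting cannot separate reads on those bases.

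H2-Eb1, the beta chain of I-E, was at 15.1 and 14.8 FPKM in the control, 21.03 and 21.1 with PRDX1 alone, 16.6 and 17.4 with RANKL alone, and 22.8 and 23.8 with PRDX1 + RANKL. Groups with and without PRDX1 did not overlap here either. The log2 change without RANKL was 0.47 (SE 0.06, adjusted p = 0.000204), or 1.39-fold. Its partner alpha gene H2-Ea-ps had 0 reads in all 8 libraries, which allows up to 0.0835 to 0.141 FPKM per library at a floor of 3 reads (counting error only).

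H2-Aa, the alpha chain of I-A, was at 34.2 and 29.1 FPKM in the control, 36.8 and 35.9 with PRDX1 alone, 31.2 and 29.7 with RANKL alone, and 36.8 and 39.0 with PRDX1 + RANKL. The 4 PRDX1 libraries were again the highest, but control replicate 1 lay close to them. Without RANKL the log2 difference was 0.20 (95% interval 0.03 to 0.36, adjusted p = 0.070), and it passed by adjusted p under upper quartile scaling and with voom. Over the alternatives it ranged from 0.09, without control replicate 2, to 0.31, without control replicate 1.

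Ciita, the master coactivator of these genes (chr16:10489781-10527640, plus strand), was near the filter, at 0.630 and 0.465 FPKM in the control, 0.837 and 0.864 with PRDX1 alone, 0.812 and 0.754 with RANKL alone, and 0.838 and 0.774 with PRDX1 + RANKL. The control libraries were the lowest 2, and the other 3 groups overlapped or adjoined. The log2 difference by PRDX1 without RANKL was 0.26 (95% interval 0.02 to 0.50, adjusted p = 0.0951). It passed by adjusted p without the filter on low values and without the intensity trend of the fit. With voom, the method of limma for counts, on the recovered reads, it was 0.68 (adjusted p = 0.0154), which passed both thresholds. Over all annotated transcripts Ciita shares 329 exon bases with Dexi on the opposite strand. Since both strands were counted, reads on such bases cannot be told apart. Whether the bases lie in the counted transcript was not checked.

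H2-DMa and H2-DMb1, the chains of the peptide editor, had other values. H2-DMa was at 20.8 and 20.9 FPKM in the control and 19.8 and 18.0 with PRDX1 alone, against 13.4 and 14.5 with RANKL alone and 13.8 and 13.2 with PRDX1 + RANKL. All 4 RANKL libraries were below all 4 without RANKL. H2-DMb1 was at 6.30 and 6.11 FPKM in the control, 7.32 and 7.72 with PRDX1 alone, 4.40 and 5.22 with RANKL alone, and 6.11 and 4.56 with PRDX1 + RANKL, where replicate 1 reached the control. For PRDX1 without RANKL the log2 differences were -0.14 for H2-DMa (adjusted p = 0.160) and 0.24 for H2-DMb1 (adjusted p = 0.153). H2-DMb1 and H2-DMb2 are near copies, so that the split of reads between them is uncertain.

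In the presence of RANKL, PRDX1 left both I-A chains, H2-Eb1 and Cd74 higher, at 1.24 to 1.37-fold, under the fold threshold. Called were 0 of 7 members, where 6.03% of all genes were called higher and 4.17% lower. At an unadjusted p under 0.05 there were 4 members, and voom also called 0. By adjusted p alone 4 members were higher and 0 lower, against 16.9% and 25.6% of all genes, and the median change was 0.31 for the members and -0.06 for all genes. The log2 differences were 0.45 for H2-Ab1 (SE 0.06, adjusted p = 0.000294), 0.43 for H2-Eb1 (SE 0.06, adjusted p = 0.000189), 0.40 for Cd74 (SE 0.06, adjusted p = 0.000569) and 0.31 for H2-Aa (SE 0.07, adjusted p = 0.00746). The value of H2-Aa no longer passed when PRDX1 + RANKL replicate 2, its highest library, was left out. H2-DMb1 at 0.12, Ciita at 0.02 and H2-DMa at -0.04 did not pass, and the signs of the last 2 turned under quantile normalization and upper quartile scaling respectively.

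Whether the effect of PRDX1 differed with RANKL was tested as the interaction, for which 0 of 7 members were called, against 4.5% of all genes in the higher and 4.35% in the lower direction. At an unadjusted p under 0.05 there were 2 members, and voom called 0. These were H2-Ab1, with a log2 interaction of -0.25 (95% interval -0.45 to -0.05, adjusted p = 0.0701), and Cd74, with -0.23 (95% interval -0.42 to -0.03, adjusted p = 0.0884). Without RANKL alone replicate 1 the interactions were -0.30 for H2-Ab1 and -0.32 for Cd74, under the fold threshold. Over all alternatives they ranged from -0.31 to -0.20 for H2-Ab1 and from -0.32 to -0.14 for Cd74. No member passed by adjusted p under any alternative that kept all 8 libraries. The interaction of H2-Eb1 was -0.04 (95% interval -0.22 to 0.14).

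RANKL without PRDX1 left the members on both sides of 0. H2-DMa was lower by 0.55 on the log2 scale (SE 0.07, adjusted p = 6.34e-05) and H2-DMb1 by 0.32 (SE 0.12, adjusted p = 0.0388), while Cd74 was 0.19 higher (SE 0.06, adjusted p = 0.0202) and H2-Eb1 0.18 higher (SE 0.06, adjusted p = 0.0218). None reached 1.5-fold, so that 0 of 7 members were called, where 11.8% of all genes were called higher and 9.96% lower (1383 and 1165 genes, which became 1088 and 1322 under quantile normalization and 1153 and 1302 under upper quartile scaling). At an unadjusted p under 0.05 there were 4 members, and voom called 0. By adjusted p alone 2 were higher and 2 lower, against 37% and 22.9% of all genes, with a median change of 0.07 for the members and 0.10 for all genes. H2-DMa passed the fold threshold under quantile normalization (-0.63) and upper quartile scaling (-0.61), under both of which Cd74 and H2-Eb1 no longer passed. H2-DMa still passed by adjusted p whichever library was omitted. Cd74 no longer did without control replicate 1 or RANKL alone replicate 2, nor without the filter on low values or the intensity trend of the fit. H2-Eb1 no longer did without these 2 libraries or control replicate 2, and H2-DMb1 without either control library, either PRDX1 alone library or RANKL alone replicate 1, nor without the filter or with voom. Ciita, at 0.21, passed by adjusted p without the filter, without the trend and with voom. Over the alternatives the value of Cd74 ranged from 0.10, without RANKL alone replicate 2, to 0.29.

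With PRDX1 present in both groups, RANKL again left H2-DMa lower, by 0.45 on the log2 scale (SE 0.07, adjusted p = 0.000588), and H2-DMb1 by 0.44 (SE 0.12, adjusted p = 0.0132), as well as H2-Ab1 by 0.18 (SE 0.06, adjusted p = 0.0439). Called were 0 of 7 members, where 4.52% of all genes were called higher and 3.98% lower. These 529 and 466 genes became 457 and 563 under quantile normalization and 466 and 542 under upper quartile scaling. At an unadjusted p under 0.05 there were 4, and voom called 0. By adjusted p alone 3 were lower and 0 higher, against 14.4% and 26.2% of all genes, and H2-DMb1 no longer passed without the filter on low values or when PRDX1 + RANKL replicate 2 or PRDX1 alone replicate 2 was left out. Over the alternatives the value of H2-DMb1 ranged from -0.62 to -0.26, the latter without PRDX1 + RANKL replicate 2. H2-Ab1 no longer passed without the filter, without the intensity trend of the fit, with voom or without any 1 of the 4 libraries compared.

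PRDX1 + RANKL against the control, a comparison that shares libraries with those above, called H2-Eb1 (0.61, 1.53-fold, adjusted p = 1.47e-05) and Cd74 (0.59, 1.51-fold, adjusted p = 3.31e-05) higher and H2-DMa lower (-0.59, adjusted p = 6.81e-05). These 3 of 7 members stand against 7.5% of all genes called higher and 5.34% lower. All 3 lay just past the fold threshold, and 0 were called when PRDX1 + RANKL replicate 2 was left out. H2-Eb1 was under it with quantile normalization, and Cd74 with upper quartile scaling and without control replicate 1. H2-Ab1, at 1.44-fold, stayed under it (adjusted p = 9.47e-05). With voom 4 members were called, the fourth being Ciita (0.62, adjusted p = 0.0146). Between the groups with a single agent, RANKL alone against PRDX1 alone, H2-Ab1 was called lower (-0.63, adjusted p = 1.12e-05), 1 of 7 members, where 10.7% of all genes were called lower and 14.3% higher (1255 and 1677 genes, which became 1466 and 1231 under quantile normalization and 1484 and 1217 under upper quartile scaling), and 0 members were called without RANKL alone replicate 1. By adjusted p alone 6 of 7 members were lower and 0 higher here, against 23.2% and 41.9% of all genes, and all 7 values were below 0 (median -0.41, against 0.13 for all genes). Of the 6, H2-Aa no longer passed without PRDX1 alone replicate 1 or RANKL alone replicate 2.

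**Figure D2:**
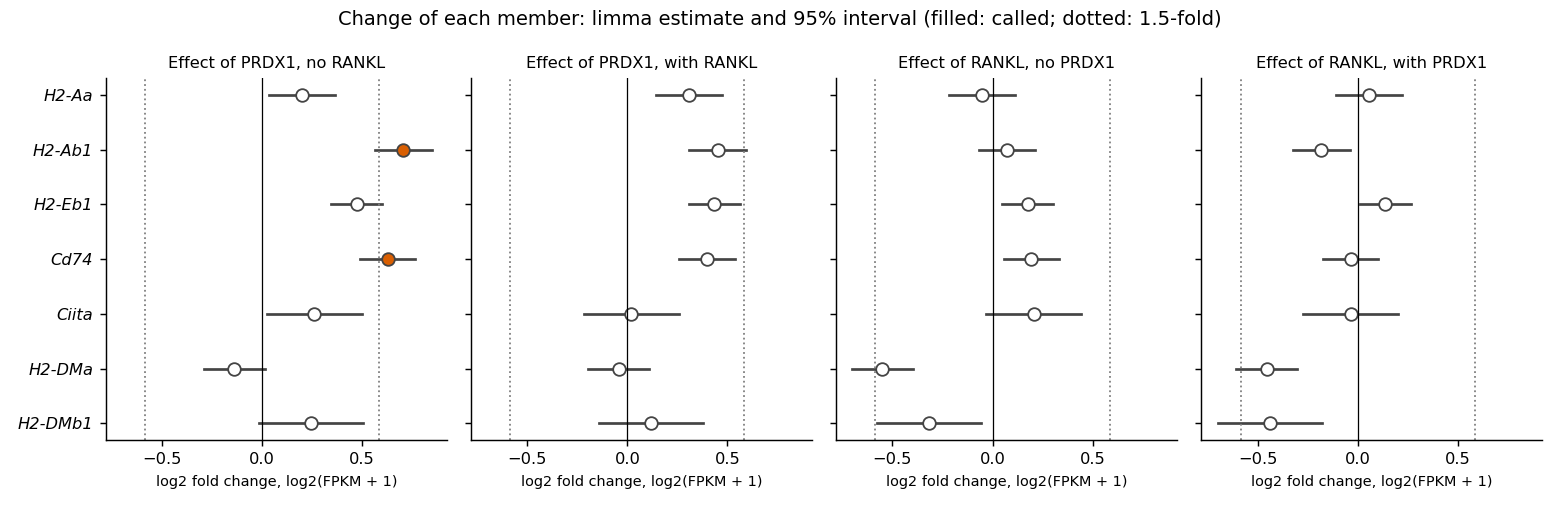
Differences of log2(FPKM + 1) for the 7 members (points, with 95% intervals from limma) in the comparisons of PRDX1 and of RANKL, each without and with the other agent. Filled points passed both thresholds, dotted lines mark 1.5-fold, and filled points appear only for H2-Ab1 and Cd74 by PRDX1 without RANKL.

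The order of the groups differed between members. H2-Ab1 ran from PRDX1 alone (mean 25.6 FPKM, SD 0.67, n = 2) over PRDX1 + RANKL (22.5, SD 0.19) and RANKL alone (16.2, SD 0.82) to the control (15.3, SD 0.87), of which the last neighbours did not differ beyond their spread (adjusted p = 0.353). Cd74 had the same order at 117, 114, 86.3 and 75.1 FPKM, and its first neighbours did not differ beyond their spread (adjusted p = 0.680) while the other neighbours did. H2-Eb1 was highest with PRDX1 + RANKL (23.3 FPKM), followed by PRDX1 alone (21.1), which did not differ from it beyond the spread (adjusted p = 0.0771), and then by RANKL alone (17.0) and the control (14.9), each of which did. For H2-Aa no neighbouring groups in the order differed beyond their spread, from 37.9 FPKM with PRDX1 + RANKL to 30.4 with RANKL alone, nor did any for Ciita or H2-DMb1. For H2-DMa the only step that passed was the one between PRDX1 alone (18.9 FPKM) and RANKL alone (13.9), with adjusted p = 0.000431.

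Across the 8 libraries, H2-Ab1 and H2-Eb1 each followed Cd74 with a Pearson r of 0.959, and H2-DMa followed H2-DMb1 with 0.728. H2-DMa against Cd74 had an r of -0.303, and H2-DMb1 had 0.291 with Cd74 and 0.483 with H2-Ab1. Ciita had 0.734 with Cd74, 0.739 with H2-Eb1, 0.709 with H2-Ab1 and 0.587 with H2-Aa. These are descriptions over libraries that share the 4 treatments. Ratios of FPKM between members, chosen after their values were seen, describe how members moved against each other. H2-Aa over H2-Ab1, alpha over beta chain of I-A, was 2.14 and 1.98 in the control and 1.41 and 1.43 with PRDX1 alone, and with RANKL 1.999 and 1.772 without PRDX1 and 1.65 and 1.72 with it. H2-DMa over Cd74 was 0.281 and 0.275 in the control, 0.166 and 0.158 with PRDX1 alone, 0.165 and 0.158 with RANKL alone, and 0.123 and 0.114 with PRDX1 + RANKL. The control was highest and the double treatment lowest in the second ratio, with each single agent between. Cd74 over H2-Ab1 was between 4.53 and 5.49 in all 8 libraries, and H2-Eb1 over H2-Ab1 was 0.806 and 0.840 with PRDX1 alone and 0.945 to 1.06 in the other groups.

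**Figure D3:**
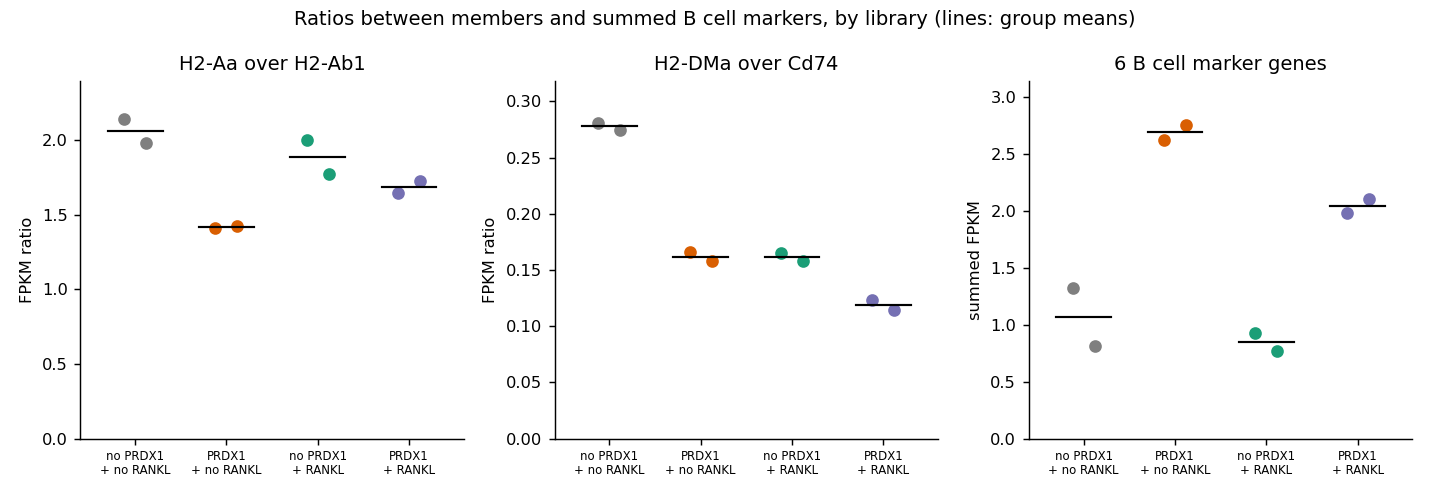
FPKM ratios of H2-Aa over H2-Ab1 and of H2-DMa over Cd74, and the summed FPKM of 6 B cell marker genes (vertical axes, from 0), in every library of the 4 groups, with lines for group means. H2-DMa over Cd74 is at 0.281 and 0.275 in the control and at 0.123 and 0.114 with PRDX1 + RANKL, and the B cell sum is higher in the PRDX1 libraries (1.98 to 2.75) than in the others (0.766 to 1.32).

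Summed over their lists, markers of cell types other than macrophages and osteoclasts, B cells and dendritic cells that carry class II among them, were also higher in the PRDX1 libraries, though single markers were not all so. The 6 B cell markers summed to 55 to 86 reads per library without PRDX1 and 198 to 220 with it. Cd22 gave 10 to 47 of these reads without PRDX1 and 102 to 129 with it, while Ms4a1 had 23 and 2 reads with RANKL alone and 6 and 14 with PRDX1 + RANKL. None passed the filter, and none was at 0 in every library. The 10 dendritic cell markers summed to 18.4 to 20.1 FPKM without PRDX1 and 26.8 to 32.8 with it. Without Itgax, left out after its values were seen, the other 9 summed to 14.4 and 13.1 FPKM in the control, 13.2 and 14.1 with PRDX1 alone, 10.4 and 11.3 with RANKL alone, and 15.1 and 17.2 with PRDX1 + RANKL, so that control and PRDX1 alone overlapped. Itgax and Ccr7, which macrophages can also express when activated, were called higher without RANKL (1.23 and 0.91) and with it (0.81 and 0.99). The other 3 dendritic markers tested were not called by PRDX1, with Cd209a at -0.49 without RANKL (adjusted p = 0.0316) and -0.08 with it, Batf3 at -0.16 and 0.41, and Clec10a at -0.04 and 0.36, and the median over the 5 tested was -0.04 without RANKL and 0.41 with it. Flt3, Zbtb46, Clec9a and Xcr1 were under the filter. Plasmacytoid dendritic cell markers summed to 168 to 221 FPKM without PRDX1 and 323 to 331 with it, of which Bst2 alone made up 160 to 209 and 309 to 318. Tcf4, next in level, had means of 10.99 FPKM in the control (SD 0.022, n = 2), 10.5 with PRDX1 alone (SD 0.69), 6.51 with RANKL alone (SD 0.31) and 8.31 with PRDX1 + RANKL (SD 0.47). By PRDX1 without RANKL 3 of these 5 markers were called higher, Bst2, Siglech (0.67) and Ccr9 (0.59), and 0 lower, and with RANKL 1 was called higher, Bst2, while all 5 were higher by adjusted p alone, Tcf4 by 0.31. Of all genes, 3.8% were called higher and 1.99% lower without RANKL, and 6.03% and 4.17% with it. By adjusted p alone 16.9% of all genes were higher with RANKL. For neutrophil markers the sums were 7.50 to 15.7 FPKM without and 33.2 to 41.8 with PRDX1. S100a8 gave 3.15 to 9.19 FPKM of these without and 17.1 to 18.0 with it, and S100a9 3.55 to 5.91 and 12.8 to 21.5. Ly6g had 0 to 8 reads per library. Of the 4 tested, 4 were called higher without RANKL and 3 with it, and 0 lower, against 3.8% and 6.03% of all genes called higher. Stromal markers summed to 7.89 to 10.9 FPKM without and 16.1 to 19.9 with PRDX1. T and NK cell markers (2 of 7 at 0 in every library) summed to 0.729 to 1.05 FPKM without PRDX1 and 1.15 to 1.83 with it. Cd4 gave 0.330 to 0.918 FPKM of this without PRDX1 and 0.820 to 1.26 with it. Osteoclast markers summed to 32.4 to 33.5 FPKM in the control, 79.7 to 84.1 with PRDX1 alone, 1813 to 1909 with RANKL alone and 234 to 241 with PRDX1 + RANKL. Macrophage markers, to which Lyz2 gave most, summed to 15718 to 17485 FPKM in the control, 16547 to 17009 with PRDX1 alone, 9857 to 10278 with RANKL alone and 13421 to 13821 with PRDX1 + RANKL. By RANKL alone 6 of these 8 markers were called lower and 0 higher (median -0.83), by PRDX1 with RANKL 4 were called higher and 0 lower (median 0.63), and by PRDX1 without RANKL 0 were called (4 higher and 1 lower by adjusted p alone, median 0.13). The shares of all genes were 9.96% lower and 11.8% higher by RANKL alone, and 6.03% higher and 4.17% lower by PRDX1 with RANKL. By adjusted p alone they were 12.2% higher and 17.6% lower by PRDX1 without RANKL. The part of these markers in the class II values was not tested.

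Among the class II genes outside the 7, H2-DMb2, the near copy of H2-DMb1, was at 5.80 and 6.04 FPKM in the control, 6.80 and 6.88 with PRDX1 alone, 5.98 and 7.05 with RANKL alone, and 6.76 and 4.91 with PRDX1 + RANKL, and it did not pass by PRDX1 without RANKL, by PRDX1 with RANKL or by RANKL alone. H2-Oa, a chain of the H2-DM inhibitor, was between 0.436 and 1.02 FPKM and was not called. By RANKL alone its value was 0.32 (adjusted p = 0.046), which ranged from 0.17 to 0.83 over the alternatives and no longer passed by adjusted p under most of them. H2-Ob, the other chain, was under the filter, with 15 and 11 reads in the control, 21 and 27 with PRDX1 alone, 7 and 12 with RANKL alone, and 44 and 26 with PRDX1 + RANKL. H2-Eb2, a near copy of H2-Eb1, had 0 and 0, 2 and 7, 2 and 2, and 30 and 11 reads in the same order, so that no fold is given. H2-Ea, H2-Pa and H2-Pb were not analysed here.

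Of the 13 transcription factors of class II genes, 0 were called by PRDX1 without RANKL, 1 higher with RANKL, and 1 higher and 1 lower by RANKL alone. Over all genes tested, 3.8% were called higher and 1.99% lower by PRDX1 without RANKL, 6.03% and 4.17% with RANKL, and 11.8% and 9.96% by RANKL alone, so that the counts of factors were near or under the share of all genes. Irf8, which drives macrophage over osteoclast fate, was at 47.8 and 50.3 FPKM in the control and 59.5 and 59.4 with PRDX1 alone, but at 7.77 and 7.72 with RANKL alone and 23.9 and 25.4 with PRDX1 + RANKL. RANKL lowered it by 2.52 on the log2 scale and PRDX1 raised it by 1.55 in the presence of RANKL (adjusted p = 2.72e-08). Spi1, which encodes PU.1, rose by 0.84 with RANKL alone. The median change over the 13 factors was 0.04 by PRDX1 without RANKL and -0.12 with it, and the RFX and NF-Y genes were called in neither. Ifng was listed at 0 in all 8 libraries. Of the 5 genes of interferon gamma receptor signaling tested, Socs1, its feedback inhibitor, rose by 0.64 with PRDX1 alone (0.46 and no longer called without control replicate 1) and by 0.98 with RANKL alone. Ifngr1, a receptor chain, rose by 0.75 with RANKL alone, and its values by PRDX1 were -0.40 without and -0.44 with RANKL.

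Of the 10 genes of endosomal antigen processing, 3 were called higher by PRDX1 without RANKL and 0 lower (median 0.51), 7 higher and 1 lower with RANKL (median 0.85), and 1 higher and 6 lower by RANKL alone (median -0.67), where the shares of all genes were 3.8% and 1.99%, 6.03% and 4.17%, and 11.8% and 9.96%. Ctss, which encodes the CD74-trimming protease cathepsin S, was named after its values had been seen. It was at 804 and 768 FPKM in the control and 1691 and 1694 with PRDX1 alone, and at 511 and 453 with RANKL alone and 1190 and 1170 with PRDX1 + RANKL. PRDX1 raised it by 1.11 on the log2 scale without RANKL (adjusted p = 5.79e-07) and by 1.29 with RANKL (adjusted p = 8.01e-08). Ctsl, cathepsin L, rose by 1.45 with PRDX1 alone and by 1.34 in the presence of RANKL. Ctsb and Lgmn, a cathepsin and the asparaginyl endopeptidase, fell by 1.75 and 1.65 with RANKL alone and rose by 1.38 and 0.77 with PRDX1 in its presence. Ifi30, the thiol reductase GILT, went the other way, up by 1.33 with RANKL alone and down with PRDX1 in the presence of RANKL (-0.66, and -0.54 and not called under quantile normalization).

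Of the 6 genes of class II turnover tested, 1 was called lower by PRDX1 without RANKL, 1 higher with RANKL, and 3 lower by RANKL alone, against 1.99%, 6.03% and 9.96% of all genes. March1, the ubiquitin ligase that removes class II from the surface, was at 14.2 and 11.9 FPKM in the control, 14.7 and 13.9 with PRDX1 alone, 4.18 and 3.57 with RANKL alone, and 8.16 and 8.23 with PRDX1 + RANKL. It fell by 1.52 with RANKL alone and rose by 0.92 with PRDX1 in the presence of RANKL. Cd81, a tetraspanin found beside class II in membranes, fell by 1.08 with PRDX1 alone and by 1.09 with RANKL alone. Ap1b1, a subunit of the clathrin adaptor AP-1, fell by 0.64 with RANKL alone (0.56 and not called without control replicate 2 or RANKL alone replicate 1). Of the 4 tested genes of CD74 ligands and partners, 0 were called by PRDX1 without RANKL, 1 higher and 1 lower with RANKL, and 2 higher and 1 lower by RANKL alone, where the shares of all genes were 6.03% and 4.17% in the former and 11.8% and 9.96% in the latter. The ligands Mif and Ddt rose by 0.98 and 1.23 with RANKL alone, and with PRDX1 in its presence their values were -0.57 and -0.59, of which Ddt was called, though not under either scaling alternative. Cxcr4, a chemokine receptor that pairs with CD74, fell by 0.76 with RANKL alone and rose by 1.07 with PRDX1 in its presence.

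**Figure D4:**
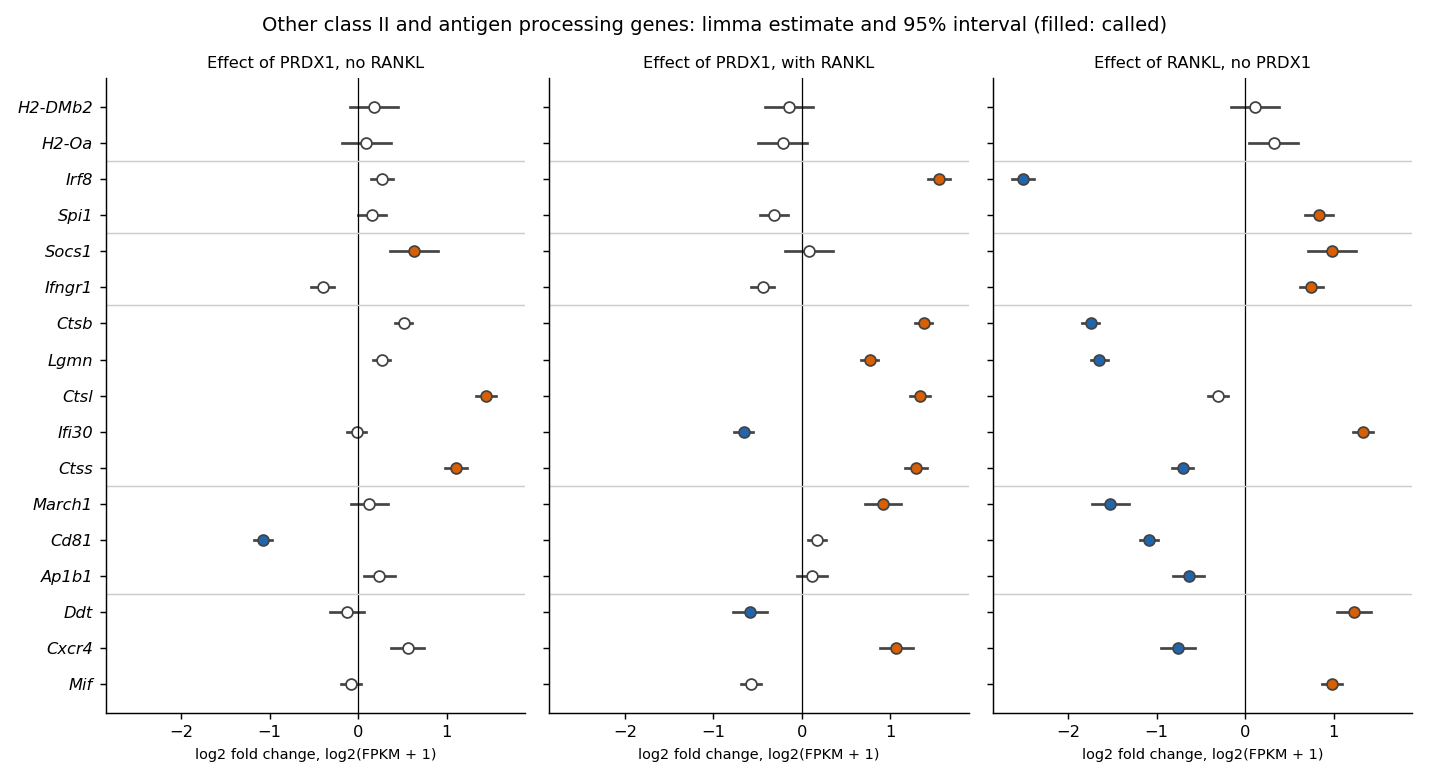
Differences of log2(FPKM + 1), with 95% intervals from limma, for 17 class II and antigen processing genes outside the 7 members, in the comparisons of PRDX1 without RANKL, PRDX1 with RANKL, and RANKL without PRDX1. Filled points passed both thresholds and grey lines part the gene lists, with Irf8 at -2.52 by RANKL alone and 1.55 by PRDX1 with RANKL.

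The genes whose profile over the 8 libraries was most like the mean of H2-Aa, H2-Ab1, H2-Eb1 and Cd74 were Slpi (Pearson r = 0.988), Clec4n (0.988), Ctsz (0.986), Cfb (0.985) and H2-D1 (0.984). Cfb, complement factor B, was at 1.49 and 1.42 FPKM in the control and between 45.5 and 46.7 in the 4 PRDX1 libraries, and H2-D1, a class I heavy chain, at 661 and 676 in the control and 1215 to 1276 with PRDX1. Both libraries of RANKL alone were between, at 4.10 and 5.02 for Cfb and 724 and 782 for H2-D1. The profile of Ciita was most like those of Tmem119 (0.975), Sirpb1c (0.948), Lims2 (0.946), Snx16 (0.930) and 1110038B12Rik (0.930), which also had their lowest values in the control libraries.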

How the data were processed

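The submitters' processing notes name HISAT2, HOMER and mm10, with no versions given in the sources used here. The deposited FPKM values were made by the authors with HOMER from reads on RefSeq exons, both strands counted, 1 transcript kept per gene. All 8 sample columns were used. For 100% of the low genes checked, FPKM times length gave a multiple, in whole numbers, of the library's unit for 1 read (tolerance 0.1 reads), which gave back the reads. Genes whose FPKM averaged 0.5 or more were fitted as log2(FPKM + 1) with limma 3.58.1 in R 4.3.3, with 1 coefficient per group, an intensity trend and 4 residual degrees of freedom. The other comparisons, tables and motif searches were made in Python 3.11.15. The fit was run on simulated reads with known changes in 1 group. Their spread was set and not taken from these data, so the run checks only the calculation. The members and gene lists were chosen with earlier results of these data known, and 2 listed genes are not reported here. Named were the members, the other class II genes, from each further list up to 4 called genes with the largest change, and the 5 genes most like the mean class II profile and Ciita by Pearson correlation. Replicates of each group differed by more than sampling noise (chi-square per degree of freedom 4.588 to 9.193). Alternatives were the pseudocount, the filter, 2 scalings, the trend, voom, a replicate block and leaving out each library. Gene overlaps were read from GENCODE vM21.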

Additional observations from a re-analysis of the deposited data

Results flagged for a closer look

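An effect of PRDX1 that differed with RANKL by the interaction test at both thresholds was found for 0 of the 7 members and for 5 of the 17 other class II and antigen processing genes named (limma, Benjamini-Hochberg adjusted over all genes, of which 4.5% were called in the higher and 4.35% in the lower direction). Most of the 17 were named for large changes, so the 2 counts are not comparable. Irf8 had a log2 effect of PRDX1 that was 1.28 larger with RANKL than without (adjusted p = 3.81e-06), Ctsb one 0.86 larger (adjusted p = 8.90e-06) and March1 one 0.79 larger (adjusted p = 0.00189). For Irf8 and Ctsb the effect was also above 0 without RANKL by adjusted p, and for March1 it was 0.13 there (adjusted p = 0.352). Cd81 differed by 1.25 (adjusted p = 1.09e-06), with an effect of -1.08 without RANKL and 0.18 with it. Ifi30 differed by -0.64 (adjusted p = 0.000126), with -0.02 without RANKL and -0.66 with it.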

How the results depend on the processing

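H2-Ab1 and Cd74 were called higher by PRDX1 without RANKL under every alternative run, and no member was called by PRDX1 with RANKL or in the interaction under any. By RANKL alone the count of members called went from 0 to 1 (H2-DMa) under quantile normalization and upper quartile scaling, and was 0 to 1 with 1 library left out (1 without RANKL alone replicate 2). For PRDX1 + RANKL against PRDX1 alone it was 0 to 1 (H2-DMb1 without PRDX1 + RANKL replicate 1), and against the control 0 to 3 with 1 library left out (0 without PRDX1 + RANKL replicate 2) and 4 with voom (Ciita added). Between the single agents it went from 1 to 2 (H2-DMb1 added) under a pseudocount of 0.1, quantile normalization, upper quartile scaling and voom, and was 0 to 2 with 1 library left out (0 without RANKL alone replicate 1, 2 without RANKL alone replicate 2 or PRDX1 alone replicate 1). The causes were not tested.

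Signs turned for values near 0. Under quantile normalization these were H2-Ab1 by RANKL alone (-0.00816), Ciita by PRDX1 with RANKL (-0.0281) and Ifi30 by PRDX1 alone (0.0227), and under upper quartile scaling H2-DMa by PRDX1 with RANKL (0.00334) and Ifi30 by PRDX1 alone (0.0218). With 1 library left out, the values by PRDX1 alone ranged from -0.0417 to 0.0105 for Ifi30 and from -0.0620 to 0.246 for H2-Oa. Those by PRDX1 with RANKL ranged from -0.00711 to 0.0440 for Ciita, -0.0996 to 0.0136 for H2-DMa, -0.0587 to 0.296 for H2-DMb1 and -0.343 to 0.0496 for H2-DMb2. Those by RANKL alone ranged from -0.162 to 0.0607 for H2-Aa, and the interactions from -0.00339 to 0.220 for H2-Aa and -0.301 to 0.0540 for H2-DMb1. Of the other single-gene values, 590 under other alternatives and 667 with 1 library left out kept their direction and side of the thresholds.

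Deviations of same-numbered libraries correlated at 0.008 to 0.096 between groups. Such values cannot show whether cultures of the same number shared an animal or a batch. A fit with the replicate number as a block called the same numbers of members, 2 by PRDX1 without RANKL, 0 with RANKL and 3 for PRDX1 + RANKL against the control. With 2 cultures a group, depth limits Ciita (96 to 199 reads, the fewest of the members), and H2-Oa, H2-Ob, H2-Eb2 and the B, T and NK cell markers had few reads too.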
